A study of Mus musculus with 14 samples.

Results

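The genes that make prostaglandins and leukotrienes in epididymal white adipose tissue (eWAT) were followed across a Western diet (WD) and a normal diet, as 10 of the 23282 genes counted: Hpgds, Ptgds, Ptgs1, Ptgs2, Ptges, Ptgis, Alox5, Alox5ap, Ltc4s and the receptor gene Ptger4. Hpgds was chosen because it was higher in the WD group of these same libraries, so its levels are given as a description and carry no test. The other 9 were chosen by pathway, and Ptger4 also stands in a gene list that the study drew from these samples, so its direction is not independent evidence. At least 1 count was found for 9 of the 10 genes, and Ptgs2 had none.

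All mice were male wild-type C57BL/6J animals, bought at 4 weeks of age and fed for 20 weeks. The WD group received food rich in fat, saturated fat and cholesterol, and the control group a standard chow, which the labels call the normal diet. RNA of the fat pad was read by QuantSeq, which sequences the 3′ end of each messenger RNA. Batch 1 held 4 control libraries and all 5 WD libraries, and batch 2 held 5 further control libraries. What the batches stand for is not given in the labels beyond the library names, and a difference between the WD group and the batch 2 controls cannot be told apart from a difference between batches. Each library is labelled as a separate sample, and p-values measure the spread between these samples. Whole fat was used, so cell types are mixed.

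The libraries held 10278970 to 13712254 counts, so that 3 counts, the smallest level taken as shown, correspond to 0.219 to 0.292 CPM (counts scaled to a total of 1e+06 per library). The levels given below are also divided by a TMM normalization factor of each library, from 0.789 to 1.09. On that scale the limits differ, most in batch 1 control replicate 1, which has the lowest factor. These limits cover counting error only. Adipocyte genes were detected in every library. In batch 1 control replicate 1, 12 epididymis genes took 15.01% of the counts, against at most 0.00581% in any other library, and the summed level of 8 adipocyte genes was lowest there, at 3999 CPM. Batch 1 control replicate 4 had a count for only 7999 genes, against 10903 to 13780 in the other 13 libraries. The fold changes of the tested members within batch 1 are given with and without these libraries.

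Prostaglandins and leukotrienes are eicosanoids, short-lived lipid signals cut from the arachidonic acid of membrane phospholipids. The cyclooxygenases encoded by Ptgs1 and Ptgs2 turn arachidonic acid into prostaglandin H2, which separate synthases then turn into prostaglandin D2, prostaglandin E2 or prostacyclin. The 5-lipoxygenase encoded by Alox5 works with its partner protein, encoded by Alox5ap, to open the leukotriene branch, and leukotriene C4 synthase, encoded by Ltc4s, adds glutathione. In fat, these lipids act between macrophages, mast cells, vessels and adipocytes, and prostaglandin E2 is known to restrain fat breakdown.

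The 2 prostaglandin D2 synthases are unrelated proteins that make the same product. The sequence in front of each is shown as a description, and any link to their levels was not tested. RefSeq windows of the 250 bases before the start were found for 8 of the 10 members, all but Alox5ap and Ptgis. Of each window (build GRCm38.p6), only the bases farther upstream than any GENCODE M21 exon of the gene are printed. They are 72 bases at chr6:65144909-65144980 for Hpgds and 157 bases at chr2:25469843-25469999 for Ptgds, both on the minus strand and written 5′ to 3′. Capitals mark E-box letters (CANNTG, the same on both strands).
Hpgds: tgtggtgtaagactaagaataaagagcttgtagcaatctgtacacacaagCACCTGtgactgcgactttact
Ptgds: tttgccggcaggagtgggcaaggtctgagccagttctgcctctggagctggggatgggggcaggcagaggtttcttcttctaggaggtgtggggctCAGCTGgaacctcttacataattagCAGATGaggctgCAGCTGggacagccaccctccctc

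Over the full windows, E-box letters were present in 6 of 8 members and in 66.2% of all 32851 windows of this length. GAGGAA, a core that PU.1 can bind in myeloid cells, was present on one strand or the other in 5 of 8 members (Hpgds, Ptgs1, Ptgs2, Ptges and Alox5) and in 23.3% of all windows. In Hpgds these letters began 49 bases before the RefSeq start, inside the first exon of the longer GENCODE transcript. AGATAA (9.99% of all windows) and TATAAA (12.4%) were present in 0 of 8 members. These matches describe letters and not bound sites.

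Hpgds, at chr6:65117293-65144908 on the minus strand, encodes the glutathione-dependent prostaglandin D2 synthase of blood-derived cells. Its levels in the batch 1 controls were 6.11, 14.7, 10.3 and 27.95 CPM. In the WD group they were 93.1, 47.2, 93.5, 118 and 85.3 CPM. In the batch 2 controls they were 7.46, 0, 3.62, 6.71 and 8.71 CPM. All 5 WD libraries lay above all 9 control libraries, and the highest control was replicate 4 of batch 1, the library with the fewest genes. The WD mean was 87.4 ± 25.5 CPM (SD, n = 5). Batch 1 controls averaged 14.8 ± 9.46 CPM (SD, n = 4), and batch 2 controls averaged 5.30 ± 3.51 CPM (SD, n = 5). The ratio of the WD mean to the control mean was 5.91 within batch 1 and 16.5 against batch 2. These values chose the gene. Counts behind them ran from 446 to 1472 in the WD libraries and from 0 to 373 in the controls.

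**Figure D1:**
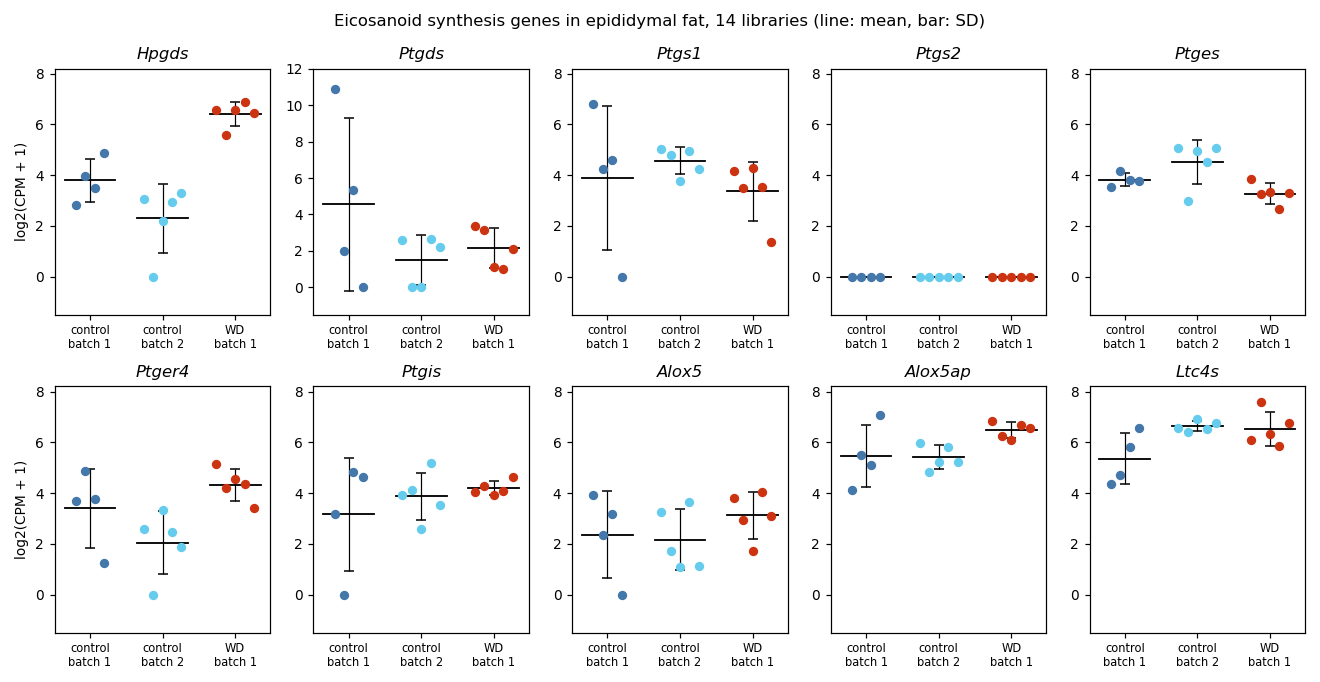
Level of each member as log2(CPM + 1) in every library, with batch 1 controls (4), batch 2 controls (5) and the WD group (5) side by side; points are libraries, lines are group means and bars are SD, and the Ptgds panel has a taller axis. The WD points of Hpgds sit above all 9 control points, 1 batch 1 control carries the Ptgds mean, and Ptgs2 is at 0 in all 14 libraries.

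Macrophage markers as a list were higher alongside Hpgds. Within batch 1, 9 of 9 tested macrophage markers had a log2 fold change above 0 (median 1.51). In edgeR, 0 of them passed an adjusted p under 0.05, as for 0% of all genes. At an unadjusted p under 0.05, 5 were higher, against 3.13% of all genes. The summed level of 10 macrophage markers was 229 to 1556 CPM in the batch 1 controls, 1459 to 2322 CPM in the WD group and 312 to 602 CPM in the batch 2 controls. Set against Adgre1, which encodes the macrophage protein F4/80, the libraries held 16.2 to 36.9 Hpgds counts per 100 Adgre1 counts in the batch 1 controls and 21.3 to 43.4 in the WD group, ranges that overlapped. In the batch 2 controls this ratio was 0 to 21.9, and 1 of the 5 libraries reached the WD range. Against C1qa, a complement gene of macrophages, Hpgds stood at 6.67 to 14.8 per 100 counts in the batch 1 controls (median 8.33), 6.68 to 38.5 in the WD group (median 28.2) and 0 to 7.44 in the batch 2 controls (median 5.61). The low WD value was that of replicate 2, and the WD range overlapped both control ranges. Against Csf1r, the macrophage growth factor receptor gene, the ranges were 6.97 to 13.3 (median 9.13), 5.29 to 24.98 (median 20.8) and 0 to 8.23 (median 3.05) in the same order, with WD replicate 2 again the lowest of its group. These Hpgds ratios use the levels that chose the gene and were set up with the values known. No test was made of them. Mast cells also make prostaglandin D2: 9 mast cell markers summed to 0 to 56.9 CPM in the batch 1 controls, 18.4 to 133 CPM in the WD group and 7.11 to 47.4 CPM in the batch 2 controls, and Tpsab1 was at 0 in all 3 groups. Within batch 1, 4 of 5 tested mast cell markers also had a log2 fold change above 0 (median 2.09), and Hdc was below 0 (−1.28). At an unadjusted p under 0.05 in edgeR, 0 of them were higher, against 3.13% of all genes. The 5 eosinophil markers never summed to more than 12.5 CPM, with Epx at 0 in all 3 groups. In a whole fat pad, more cells of a type and more RNA per cell cannot be told apart, and the part of any of these cells in the level of Hpgds was not tested.

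Among the genes whose levels most resembled Hpgds over the 14 libraries, out of 9873 genes with a mean of at least 5 CPM, were Ms4a7 (Pearson's r = 0.951), Lgals3 (r = 0.934), Plekho1 (r = 0.931) and Apobec1 (r = 0.928). The points share the diet groups, and a difference between groups alone gives a high r. Ms4a7 is a known macrophage gene, and Lgals3 encodes galectin-3.

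Ptgds, at chr2:25466709-25470046 on the minus strand, encodes the lipocalin-type prostaglandin D2 synthase, an abundant secreted protein of the brain and the male genital tract. Its batch 1 control levels were 1890, 3.03, 39.3 and 0 CPM. The WD libraries held 9.30, 7.93, 1.16, 1.04 and 3.24 CPM, and the batch 2 controls held 5.04, 0, 0, 5.26 and 3.70 CPM. The highest library was batch 1 control replicate 1, the one with 15.01% epididymis counts. The groups overlapped. WD against batch 1 controls gave a log2 fold change of −6.80 (SE 1.93, unadjusted p = 0.00382, edgeR adjusted p = 0.489), and without that library −1.64 (unadjusted p = 0.322 in the same edgeR test). Against the batch 2 controls, the log2 fold change was 0.69 (SE 1.30, edgeR adjusted p = 0.884). Genes most like Ptgds over the 14 libraries were Scn2b (r = 0.941), Cdh1 (r = 0.935), Ehf (r = 0.931), Mal (r = 0.931) and Ncam1 (r = 0.930). Cdh1, Ehf and Mal are known epithelial genes, and 1 library carries most of the range of these values.

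Apart from Hpgds, 0 of the 8 members that passed the filter on low counts differed between the WD group and the batch 1 controls at an adjusted p under 0.05 in edgeR, where 0% of the 12157 genes tested were called. At an unadjusted p under 0.05 there was 1 of the 8, Ptgds, which was lower, against 5.11% of all genes in either direction and 1.97% lower. DESeq2 and limma-voom also called 0 of them, as did edgeR without batch 1 control replicates 1 and 4. Without those libraries the log2 fold changes were −2.22 for Ptgds, −0.81 for Ptgs1, −0.74 for Ptges, 0.01 for Ptger4, 0.35 for Ptgis, 0.57 for Alox5, 1.23 for Alox5ap and 1.33 for Ltc4s. With them, the median log2 fold change of the 8 was 0.32, against 0.01 over all genes tested, and 5 of the 8 were above 0. The comparison of WD with the batch 2 controls called 1 of the 8, Alox5ap, with 6.4% of the 12070 genes tested called. Unadjusted p-values under 0.05 were found there for 3 of the 8, with Alox5ap and Ptger4 higher and Ptges lower, against 17.7% of all genes (9.83% higher and 7.9% lower). The comparison of the 2 control batches called 0 of the 8 (0% of 12106 genes called). At an unadjusted p under 0.05, that comparison had Ltc4s higher and Ptgds lower in batch 2, where 7.39% of all genes passed (3.85% higher and 3.54% lower).

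**Figure D2:**
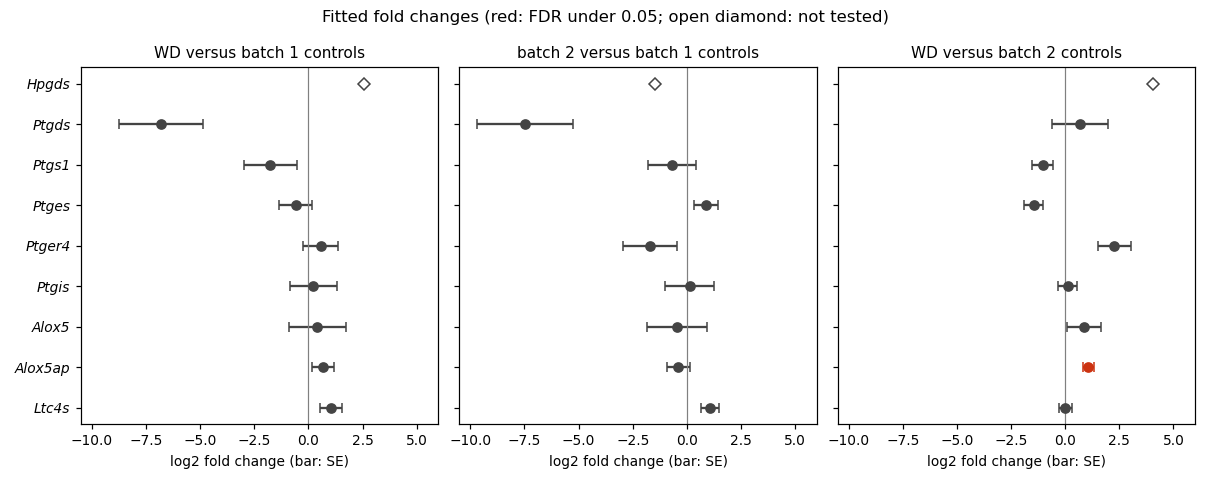
Fitted log2 fold change of the 9 detected members in 3 comparisons. Bars are SE and red marks an adjusted p under 0.05. The open diamond is Hpgds, which was chosen on its rise in the WD group and carries no test here. In batch 2 against batch 1 controls, which holds no WD library, Hpgds was at −1.47 (SE 1.12). Alox5ap in WD against batch 2 controls is the 1 red point, and the bars of Ptgds are the widest in each panel.

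Ptgs1, the cyclooxygenase that most cells make at rest, is at chr2:36230426-36252272. It held 109, 17.8, 23.1 and 0 CPM in the batch 1 controls. The WD libraries held 16.9, 10.3, 18.3, 10.6 and 1.58 CPM, and the batch 2 controls 31.5, 26.99, 12.7, 30.3 and 17.9 CPM. The controls of batch 1 spanned the whole range, with the highest value in replicate 1 and no count in replicate 4. WD against batch 1 controls gave −1.76 (SE 1.22, edgeR adjusted p = 1.00) on the log2 scale, a sign that turned with limma-voom (0.96). Without replicate 1, the library with epididymis counts, it was −0.23, and without replicate 4 it was −2.17. WD against batch 2 controls gave −1.05 (SE 0.51, edgeR adjusted p = 0.296). Ptgs2, the inducible cyclooxygenase at chr1:150100031-150108227, was at 0 in all 14 libraries. This allows up to 0.219 to 0.292 CPM per library, before TMM scaling, within the span counted. That span ends 215 bases short of the farthest annotated 3′ end, and bases beyond the span were not counted. Which annotated end Ptgs2 transcripts would use here was not tested.

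Ptges, at chr2:30889471-30929863, encodes the microsomal prostaglandin E synthase that works beside the cyclooxygenases. It held 10.6, 17.1, 13.1 and 12.5 CPM in the batch 1 controls, 13.3, 8.46, 9.09, 5.36 and 8.80 CPM in the WD group and 32.4, 7.01, 29.8, 21.8 and 32.6 CPM in the batch 2 controls. Of the batch 2 controls, 4 lay above every WD library and replicate 2 lay among them. The difference within batch 1 was −0.59 (SE 0.76, edgeR adjusted p = 1.00) on the log2 scale. Against the batch 2 controls it was −1.46 (SE 0.44, unadjusted p = 0.00416), which missed the threshold in edgeR (adjusted p = 0.0601) and passed without batch 2 control replicate 2 (edgeR adjusted p = 0.0148) and in DESeq2 (adjusted p = 0.0203).

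Ptger4, at chr15:5206661-5244187, encodes EP4, a receptor for prostaglandin E2 found on macrophages and many other cells. It held 11.9, 28.6, 12.6 and 1.35 CPM in the batch 1 controls. The WD libraries held 34.1, 17.6, 22.3, 19.3 and 9.55 CPM, and the batch 2 controls 4.97, 0, 8.97, 4.57 and 2.70 CPM. The WD group overlapped the batch 1 controls and lay just above the batch 2 controls. Within batch 1 the log2 fold change was 0.57 (SE 0.81, edgeR adjusted p = 1.00). Against batch 2 it was 2.27 (SE 0.76, unadjusted p = 0.00870, edgeR adjusted p = 0.0988), and it passed in DESeq2 (adjusted p = 0.0199) and in edgeR without batch 2 control replicate 2 (adjusted p = 0.0423). In that comparison 4.88% of all genes lay wholly higher in the WD group, and Alox5ap and Ptger4 were the members other than Hpgds that did. None lay wholly lower, as 4.01% of all genes did. The genes most like Ptger4 were Fblim1 (r = 0.896), Ptprj (r = 0.881), Tubb5 (r = 0.869), Ppfibp1 (r = 0.860) and Cxcl13 (r = 0.849). The annotated span of Ptger4 overlaps that of the protein-coding gene Ttc33 on the other strand. The span counted for Ptger4 ends 26738 bases short of the farthest annotated 3′ end. Which annotated end its transcripts use in fat was not tested. Bases beyond the counted span were not counted, so its levels and fold changes cover only the counted part.

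Ptgis, at chr2:167191805-167240604, encodes prostacyclin synthase of vessels and stroma. It held 0 to 27.4 CPM in the batch 1 controls, 14.3 to 23.7 CPM in the WD group and 5.05 to 35.3 CPM in the batch 2 controls. The WD libraries lay inside both control ranges. The span counted for Ptgis ends 11391 bases short of the farthest annotated 3′ end, and which annotated end is used in fat was not tested. Bases beyond the counted span were not counted, so the levels and fold changes of Ptgis cover only the counted part. The log2 fold changes were 0.23 (SE 1.10) within batch 1 and 0.11 (SE 0.45) against batch 2, with edgeR adjusted p = 1.00 and 0.957.

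On the leukotriene branch, Alox5ap, at chr5:149264767-149288153, encodes the membrane protein that hands arachidonic acid to 5-lipoxygenase. Its levels were 16.4, 44.6, 33.3 and 135 CPM in the batch 1 controls and 114, 75.9, 67.7, 102 and 93.1 CPM in the WD group. The batch 2 controls held 61.1, 27.4, 36.4, 55.4 and 36.7 CPM. All WD libraries lay above all batch 2 controls and above all batch 1 controls but replicate 4, the library with the fewest genes, which was the highest of all 14. The WD mean was 90.6 ± 18.96 CPM (SD, n = 5), with batch 1 controls at 57.3 ± 53.1 CPM (SD, n = 4) and batch 2 controls at 43.4 ± 14.2 CPM (SD, n = 5). Alox5ap rose against the batch 2 controls, by 1.06 on the log2 scale (SE 0.25, edgeR adjusted p = 0.0168). Over the alternatives run, its adjusted p was 0.00186 to 0.0566, and it missed the threshold without WD replicate 1 (edgeR adjusted p = 0.0566) or without batch 2 control replicate 3 (edgeR adjusted p = 0.0543). Within batch 1 the log2 fold change was 0.66 (SE 0.50, edgeR adjusted p = 1.00), and it was 1.51 without replicate 4 (edgeR adjusted p = 0.126) and 0.39 without replicate 1 (edgeR adjusted p = 1.00).

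Macrophage markers also differed where Alox5ap did. In WD against batch 2 controls, 8 of 9 tested macrophage markers rose, as 3.93% of all genes did, with a median log2 fold change of 2.70 over the 9. Other marker lists also moved there. Of the fibroblast and progenitor markers 2 of 8 rose, and of the adipocyte markers 7 of 8 fell, as 2.48% of all genes did. There were 65.2 to 137 Alox5ap counts per 100 Adgre1 counts in the batch 2 controls and 65.4 to 99.4 in the batch 1 controls, and 27.3 to 47.4 in the WD group, below both. Per 100 Csf1r counts, WD libraries held 8.52 to 23.1 Alox5ap counts, below the range of batch 1 controls (24.2 to 35.8) but overlapping that of batch 2 controls (22.6 to 49.2). These ratios were set up with the values known, and no test was made of them. Genes most like Alox5ap over the 14 libraries were Taok3 (r = 0.930), Col3a1 (r = 0.930), Ehd4 (r = 0.925), Tnfrsf11a (r = 0.922) and Lyn (r = 0.920).

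**Figure D3:**
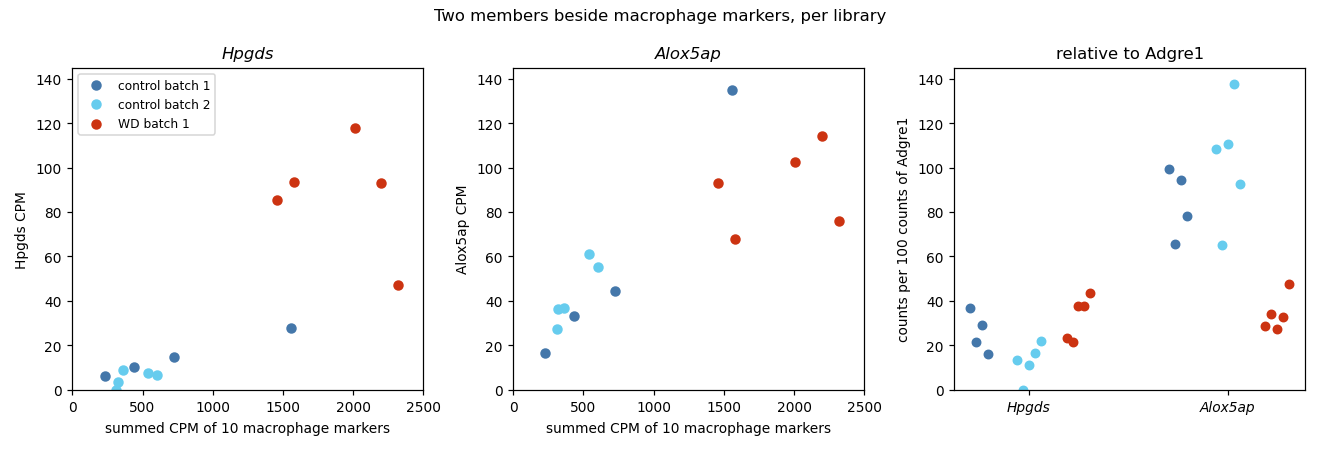
Left and middle: Hpgds and Alox5ap (CPM) against the summed CPM of 10 macrophage markers, 1 point per library. Right: counts of each gene per 100 counts of Adgre1, grouped as batch 1 controls, batch 2 controls and WD from left to right; the Hpgds ratio of the WD group overlaps both control groups, and the Alox5ap ratio of 27.3 to 47.4 lies below both.

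Alox5, at chr6:116410077-116461178, encodes 5-lipoxygenase itself and was low throughout. It held 0 to 14.2 CPM in the batch 1 controls, 2.25 to 15.7 CPM in the WD group and 1.13 to 11.5 CPM in the batch 2 controls. The 3 ranges overlapped, and the log2 fold changes were 0.41 (SE 1.33) within batch 1 and 0.88 (SE 0.78) against batch 2, with edgeR adjusted p = 1.00 and 0.674.

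Ltc4s, at chr11:50236461-50238616, encodes the enzyme that makes leukotriene C4 and so leads to the cysteinyl leukotrienes. Its levels were 19.5, 25.3, 54.8 and 93.1 CPM in the batch 1 controls and 66.8, 192, 78.4, 57.6 and 106 CPM in the WD group. The batch 2 controls held 92.5, 84.1, 121, 92.2 and 108 CPM. The batch 1 controls thus had the lowest mean, 48.2 CPM, against 100 CPM in the WD group and 99.7 CPM in the batch 2 controls. All groups overlapped, and batch 1 control replicate 4 (93.1 CPM) lay inside the ranges of both other groups. The log2 fold change was 1.05 (SE 0.51, unadjusted p = 0.0594, edgeR adjusted p = 1.00) for WD against batch 1 controls and 1.05 (SE 0.42, unadjusted p = 0.0265, edgeR adjusted p = 0.595) for batch 2 against batch 1 controls. These comparisons share the batch 1 controls. Between WD and batch 2 controls it was 0.01 (SE 0.29, edgeR adjusted p = 0.995), a value whose sign turned with the scaling (−0.04 with library totals alone). Genes most like Ltc4s were Gpd1 (r = 0.916), Pmf1 (r = 0.902), Ptger3 (r = 0.902), Fasn (r = 0.897) and Akr1b3 (r = 0.888). Gpd1 and Fasn are adipocyte enzymes of glycerol and fatty acid synthesis, and Ptger3 encodes EP3, the prostaglandin E2 receptor of adipocytes. Adipocyte markers summed to 3999 to 26963 CPM in the batch 1 controls, 12668 to 19019 CPM in the WD group and 34234 to 46422 CPM in the batch 2 controls, and their part in the levels of Ltc4s was not tested.

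A wider list of 55 other eicosanoid genes (synthases, receptors, transporters, breakdown enzymes, lipoxygenases and phospholipases A2) put the members in their pathway. Of these, 38 were tested in WD against batch 1 controls. At an adjusted p under 0.05, edgeR, DESeq2 and limma-voom called 0. At an unadjusted p under 0.05, 2 were higher and 1 was lower, against 3.13% and 1.97% of all genes. Their median log2 fold change was 0.08. The lowest unadjusted p-values of the list, members included, belonged to Ptgds, Ggt1, Ptgir, Pla2g15 and Ltc4s.

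Ptgir encodes the prostacyclin receptor. Its counts were 0, 0, 9 and 0 in the batch 1 controls and 139, 131, 69, 110 and 21 in the WD libraries. The groups did not overlap, as for 2.95% of all genes in that direction. The unadjusted p was 0.0192 (edgeR adjusted p = 0.733). Ptgir passed the filter on low counts here only through the WD libraries, where it was high. Its p-value and separation are therefore not independent of that filter, and no conclusion is drawn from them. In the batch 2 controls the counts were 65, 28, 50, 8 and 45, which overlapped the WD group. Pla2g15, a lysosomal phospholipase A2, was at 23.3 to 55.1 CPM in the WD group and 8.00 to 25.8 CPM in the batch 1 controls (log2 fold change 1.22, SE 0.51, edgeR adjusted p = 0.868). Ggt1, whose enzyme trims the glutathione part of leukotriene C4 without removing all of it, had 112 CPM in batch 1 control replicate 1. That is the library with epididymis counts, and Ggt1 had at most 2.59 CPM elsewhere.

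In WD against batch 2 controls, 36 genes of the wider list were tested and 1 rose and 3 fell, against 3.93% and 2.48% of all genes. Dpep1, the dipeptidase that turns leukotriene D4 into leukotriene E4, rose by 0.99 (SE 0.26, edgeR adjusted p = 0.0310) on the log2 scale. Pla2g16, the main phospholipase A2 of adipocytes, which feeds prostaglandin E2 synthesis, fell by 0.86 (SE 0.18, edgeR adjusted p = 0.00733). Mgst2, a microsomal glutathione transferase that can also make leukotriene C4, fell by 1.25 (SE 0.28, edgeR adjusted p = 0.0111). Pla2g12a, a secreted phospholipase A2, fell by 0.76 (SE 0.22, edgeR adjusted p = 0.0456). With each of the 10 libraries left out in turn, Pla2g16 and Mgst2 kept their calls, Dpep1 missed the threshold in 7 of 10 fits (edgeR adjusted p up to 0.0898) and Pla2g12a in 9 of 10 (edgeR adjusted p up to 0.120).

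None of those 4 genes passed within batch 1. Pla2g16 held 2028 to 2873 CPM in the batch 2 controls and 1033 to 1611 CPM in the WD group. In the batch 1 controls it held 95.0 CPM in replicate 1 and 1370 to 1533 CPM in the other libraries, so those lay inside the WD range. Mgst2 held 32.6 to 45.0 CPM in the batch 2 controls, 10.04 to 19.4 CPM in the WD group and 5.80 to 29.8 CPM in the batch 1 controls. Dpep1 held 29.5 to 53.9 CPM in the batch 2 controls, 55.9 to 126 CPM in the WD group and 64.1 to 102 CPM in the batch 1 controls. Pla2g12a held 206 to 305 CPM in the batch 2 controls, 85.8 to 188 CPM in the WD group and 101 to 346 CPM in the batch 1 controls. Within batch 1 the log2 fold changes were 0.23 (SE 0.58) for Pla2g16, 0.05 (SE 0.69) for Mgst2, 0.18 (SE 0.33) for Dpep1 and −0.61 (SE 0.37) for Pla2g12a, each with edgeR adjusted p = 1.00. Without batch 1 control replicate 1, the signs of Pla2g16 (−0.13) and Mgst2 (−0.20) turned, and that of Mgst2 also without replicate 4 (−0.14). In the comparison of the control batches, all batch 2 libraries lay above all batch 1 controls for Pla2g16 and Mgst2 (4.21% of all genes did) and below them for Dpep1 (1.22%). Adipocyte markers moved with these genes in WD against batch 2 controls, where 7 of 8 fell and Lep rose. Of all genes, 2.48% fell and 3.93% rose there. The part of adipocytes was not tested.

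**Figure D4:**
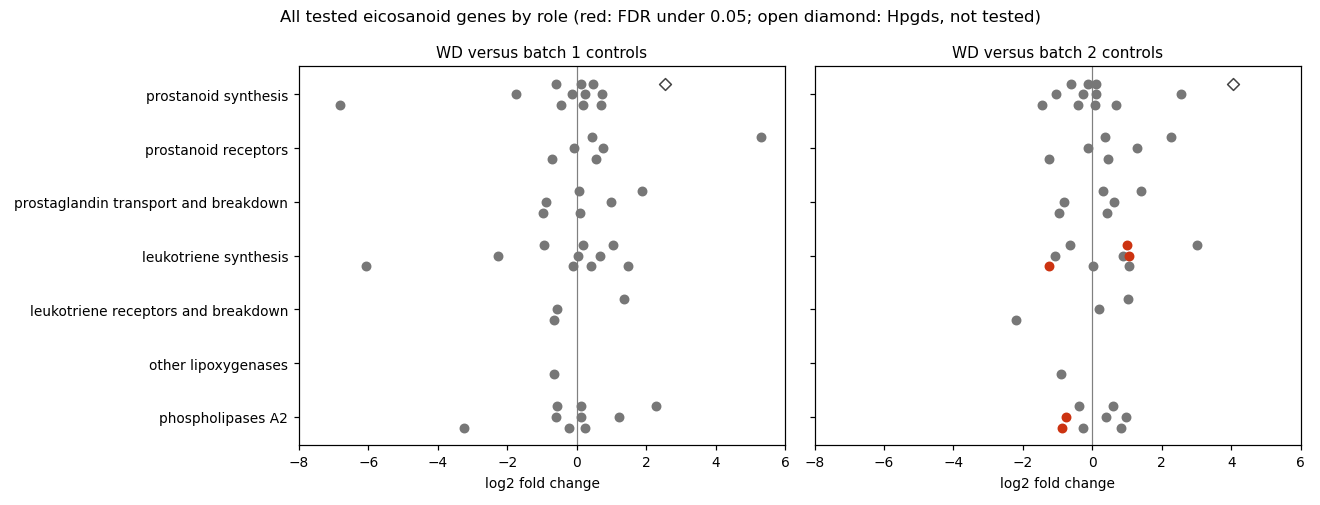
Fitted log2 fold change of every tested eicosanoid gene, members included, by role, in WD against batch 1 controls (left) and against batch 2 controls (right). Red marks an adjusted p under 0.05, of which there are 0 on the left and 5 on the right (Alox5ap, Dpep1, Mgst2, Pla2g16 and Pla2g12a); the open diamond is Hpgds, which was not tested.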

How the data were processed

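QuantSeq 3′ libraries of eWAT from 14 mice were analysed. The authors aligned reads to mm10 with Bowtie2 and counted them with bedtools from unique and multiple alignments, and the deposited counts per gene were used as they stand. Whether counting used strand is not given in the sources used here. The deposited log2 values, which the authors made in edgeR from TMM-normalized CPM plus 1, differed from those computed here by at most 0.015 over 140 values.

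Members and lists were chosen with earlier results of these data known. Groups followed the labels and library names. edgeR 4.0.16 (TMM, filterByExpr, quasi-likelihood test, Benjamini-Hochberg adjustment over all genes tested; threshold 0.05) was fitted for 3 comparisons: WD with batch 1 controls, the 2 control batches, and WD with batch 2 controls. SE is the absolute log2 fold change divided by the square root of F. CPM per library used TMM over all 14 libraries, and log2 levels had a pseudocount of 1. The fits were tested on simulated data. Alternatives were other scalings and filters, DESeq2 1.42.0, limma-voom (limma 3.58.1), a replicate block, other sets of libraries and leaving out each library.

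Named genes were the 10 members, genes of the wider list called in a comparison (at most 10 each), the 5 lowest p-values in WD against batch 1 controls, and the 5 genes most like each of 5 members, of which 1 is not reported here. Positions come from GENCODE M21 (GRCm38), in which 7 members overlap another annotated gene. These overlaps are of whole gene spans, introns included, and whether they reach the bases read was not tested. For Hpgds, Ptgs1, Ptgis, Alox5ap, Ltc4s and Ptger4 the overlap lies on the other strand, so any reads in shared bases cannot be told apart without strand. For Ptges it is a pseudogene on the same strand, which strand would not separate.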

Additional observations from a re-analysis of the deposited data

Results flagged for a closer look

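Of 48 groups of 4 or 5 libraries checked for a single library far from the rest (Dixon's criterion), 5 stood out. Chance gives 2.4 for normal values without ties, which levels near 0 need not follow. The values are on the log2(CPM + 1) scale. Ptgs1 was at 1.37 in WD replicate 5 (19 counts), against 3.49 to 4.27 in the other WD libraries. Ptges was at 3.00 in batch 2 control replicate 2, against 4.51 to 5.07 in the other batch 2 controls. Pla2g12a was at 6.44 in WD replicate 3, against 7.36 to 7.57 in the other WD libraries. Pla2g16 was at 6.58 in batch 1 control replicate 1, the library with epididymis counts, against 10.4 to 10.6 in the other batch 1 controls. Ptgir was at 0.80 in batch 1 control replicate 3 (9 counts), against 0 in the other batch 1 controls. With the others tied at 0, any count would have been flagged, so this flag says nothing about that library.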

How the results depend on the processing

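The counts of members and of wider-list genes called stayed at 0 in both comparisons with batch 1 controls under every alternative run. In WD against batch 2 controls, the 1 member called became 2 where each library had to reach 1 CPM and 3 with DESeq2. Leaving out 1 library gave 0 to 3 members (0 without WD replicate 1 or batch 2 control replicate 3, 3 without batch 2 control replicate 2) and 2 to 5 genes of the wider list. Signs of uncalled log2 fold changes turned as follows, and the cause was not tested. For WD against batch 1 controls, Ptgs1 was 0.96 with limma-voom, and with 1 library left out Ptgis ranged from −0.18 to 0.72, Pla2g16 from −0.13 to 0.43 and Mgst2 from −0.20 to 0.57. Pla2g16 and Mgst2 were −0.47 and −0.80 with all 14 libraries and no batch term, and −0.12 and −0.54 without batch 1 control replicates 1 and 4. For batch 2 against batch 1 controls, limma-voom gave 2.32 for Ptgs1 and 0.75 for Alox5, and leaving out batch 1 control replicates 1 and 4 gave 0.22 for Ptgs1 and 0.15 for Alox5ap. With 1 library left out in that comparison, Ptgs1 ranged from −1.06 to 0.81, Ptgis from −0.37 to 0.61, Alox5 from −1.05 to 0.28 and Alox5ap from −0.70 to 0.47. For WD against batch 2 controls, Ltc4s was −0.043 with library totals and −0.16 with limma-voom, and with 1 library left out it ranged from −0.37 to 0.15 and Ptgis from −0.13 to 0.60. Same-numbered libraries shared only a number (correlations of deviations −0.04 to 0.08). A replicate block gave 0.39 for Ptgs1 in batch 2 against batch 1 controls and −0.14 for Ltc4s in WD against batch 2 controls. In WD against batch 2 controls the block ended the calls of Dpep1 (edgeR adjusted p = 0.119) and Pla2g12a (edgeR adjusted p = 0.102), and DESeq2 size factors also ended that of Pla2g12a (edgeR adjusted p = 0.0546).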
